A study of Homo sapiens with 9 samples.

Results

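The transcripts described here are HSF1, the master transcription factor of the heat shock response, and 9 chaperones or co-chaperones of the cytosol: HSPA1A, HSPA1B, HSPA8, HSPH1, HSP90AA1, HSP90AB1, DNAJB1, HSPB1 and BAG3. They were chosen by gene name, as a cytosolic contrast to the chaperones of the endoplasmic reticulum (ER), and make up 10 of the 61552 genes listed for each library. All 10 were found, each in a single entry, and all 10 had enough reads to be tested. RNA-seq was done on MDA-MB-231, an established human cell line of triple-negative breast cancer (TNBC), labelled wild type and grown in DMEM with fetal bovine serum. Cells were exposed for 24 h to 2-deoxy-D-glucose (2-DG), a sugar analogue that enters cells by the glucose transporters and stalls glycolysis, at 10 mM or 20 mM. The control cells were given phosphate-buffered saline and no 2-DG. Each of the 3 groups had 3 libraries, and because the labels do not say whether these came from separate cultures, p-values measure only the spread between these samples, which may be technical.

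The heat shock response protects the cytosol and the nucleus from misfolded protein. HSF1 is held inactive by chaperones, and when unfolded protein draws them away it forms trimers, binds heat shock elements in the promoters of chaperone genes and drives their transcription. The HSP70 and HSP90 machines then refold or hand on client proteins with the help of J-domain proteins, nucleotide exchange factors and small heat shock proteins. The ER has its own set of paralogues, which are driven by the unfolded protein response through other factors. HSF1 is switched on mainly through changes to the protein, which RNA-seq does not measure.

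The files gave FPKM, that is, reads scaled to the length of the gene and the total of the library. Whole reads could be recovered from these values, and the totals lay between 30974968 and 40843638 per library. The members held between 668 reads (HSPA1A, lowest library) and 102736 reads (HSPA8, highest library). The labelled line was checked against its markers in the control, with VIM at 285 FPKM, AXL at 117 FPKM and CD44 at 69.8 FPKM, while ESR1, PGR, KRT5 and the leukocyte gene PTPRC stayed below 0.03 FPKM. ERBB2 (8.81 FPKM), EPCAM (3.75 FPKM) and CDH1 (0.365 FPKM) were low. Of these 10 markers 6 were tested, and CD44, ERBB2 and CDH1 were called lower at both doses (log2 fold changes of −0.30, −0.54 and −0.35 at 20 mM); their part in the results was not tested. Differences were tested with limma on log2(FPKM + 1), with all 9 libraries in a single fit and p-values adjusted by Benjamini-Hochberg over 16572 genes, and a gene was called at an adjusted p under 0.05. The log2 fold changes given here are on that scale, which understates changes of genes at low FPKM.

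The promoters are shown first, since the heat shock element is what HSF1 binds. RefSeq sequences (GRCh38.p14) of 250 bases before and 50 bases after the transcription start were matched by symbol for 9 of the 10 members. HSF1 was not among these 9, and its promoter is not described here. The heat shock element was searched as 2 facing units, GAANNTTC or TTCNNGAA, each of which reads the same on both strands. At least 1 such match lay in 13.5% of all 35116 promoter windows. A stricter form with 3 units in a row (GAANNTTC followed by NNGAA, or TTCNNGAA followed by NNTTC) was chosen after the matches of the first were seen and lay in 0.49% of the windows, and each match to it holds 2 overlapping matches to the shorter form. The 6 sequences below are the 250 bases before the start, 5′ to 3′ on the strand of the gene, with every match to the 2-unit element in capitals. They were chosen to show the near-identical HSPA1A and HSPA1B, the other members with the largest changes (HSPB1 and HSP90AA1), a member with 3-unit elements and a small change (HSPA8) and a member with no match (HSPH1).
HSPA1A promoter, chr6:31815293-31815542, plus strand: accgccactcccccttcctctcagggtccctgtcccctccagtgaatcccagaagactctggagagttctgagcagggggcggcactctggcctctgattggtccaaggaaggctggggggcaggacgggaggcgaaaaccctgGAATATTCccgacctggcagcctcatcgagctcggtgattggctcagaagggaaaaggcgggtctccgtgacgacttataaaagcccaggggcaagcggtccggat
HSPA1B promoter, chr6:31827488-31827737, plus strand: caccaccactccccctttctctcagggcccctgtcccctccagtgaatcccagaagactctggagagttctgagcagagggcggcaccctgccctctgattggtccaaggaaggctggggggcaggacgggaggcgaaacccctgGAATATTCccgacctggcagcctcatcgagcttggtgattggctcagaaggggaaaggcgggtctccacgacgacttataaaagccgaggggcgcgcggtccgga
HSPB1 promoter, chr7:76302423-76302672, plus strand: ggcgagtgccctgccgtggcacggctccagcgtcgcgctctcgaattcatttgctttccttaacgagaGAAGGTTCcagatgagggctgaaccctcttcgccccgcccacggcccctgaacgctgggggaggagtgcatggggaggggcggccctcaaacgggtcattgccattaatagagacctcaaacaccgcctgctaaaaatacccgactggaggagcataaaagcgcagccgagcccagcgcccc
HSP90AA1 promoter, chr14:102087045-102087294, minus strand: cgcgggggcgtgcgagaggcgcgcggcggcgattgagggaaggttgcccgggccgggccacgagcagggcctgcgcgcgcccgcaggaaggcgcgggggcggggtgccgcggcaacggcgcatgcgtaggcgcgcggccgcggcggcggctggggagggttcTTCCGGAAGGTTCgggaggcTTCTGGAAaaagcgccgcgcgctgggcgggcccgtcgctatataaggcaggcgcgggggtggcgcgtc
HSPA8 promoter, chr11:123062137-123062386, minus strand: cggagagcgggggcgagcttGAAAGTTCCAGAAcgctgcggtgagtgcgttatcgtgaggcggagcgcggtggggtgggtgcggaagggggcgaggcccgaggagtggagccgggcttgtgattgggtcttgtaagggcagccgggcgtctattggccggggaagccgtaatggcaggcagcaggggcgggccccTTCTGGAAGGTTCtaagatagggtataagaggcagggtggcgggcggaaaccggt
HSPH1 promoter, chr13:31162389-31162638, minus strand: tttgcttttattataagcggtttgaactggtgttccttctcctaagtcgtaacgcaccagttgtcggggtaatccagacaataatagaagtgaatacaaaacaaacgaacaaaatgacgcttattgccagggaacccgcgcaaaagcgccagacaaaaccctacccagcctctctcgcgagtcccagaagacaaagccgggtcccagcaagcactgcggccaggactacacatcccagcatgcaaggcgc

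In HSPA1A and HSPA1B the match began 106 and 105 bases before the start, and the surrounding bases were nearly the same in both. The single match of HSPB1 began 182 bases before its start. HSPA8 had 2 elements of 3 units, beginning 230 and 55 bases before its start. One of the starts of HSP90AA1 had an element of 3 units that began 88 bases upstream and a further match of 2 units at 68 bases, while its other annotated start had none. HSP90AB1 had 2 elements of 3 units, 165 and 112 bases before 1 of its 3 annotated starts. DNAJB1 had 2 matches of 2 units, 77 and 47 bases before 1 of its 3 starts, and 1 more match just after the start of another. HSPH1 and BAG3 had no match in their windows. The ER stress element, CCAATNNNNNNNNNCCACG on either strand, lay in 0.0769% of all windows. It matched in no window of the members, in 1 place before HSPA5 and in 2 places before HSP90B1, with no match for HYOU1 or DNAJB11. The CCAAT box, searched on both strands and contained in every ER stress element, was far more common, in 34.6% of all windows. A match is a description of these letters and not evidence that a factor was bound.

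**Figure D1:**
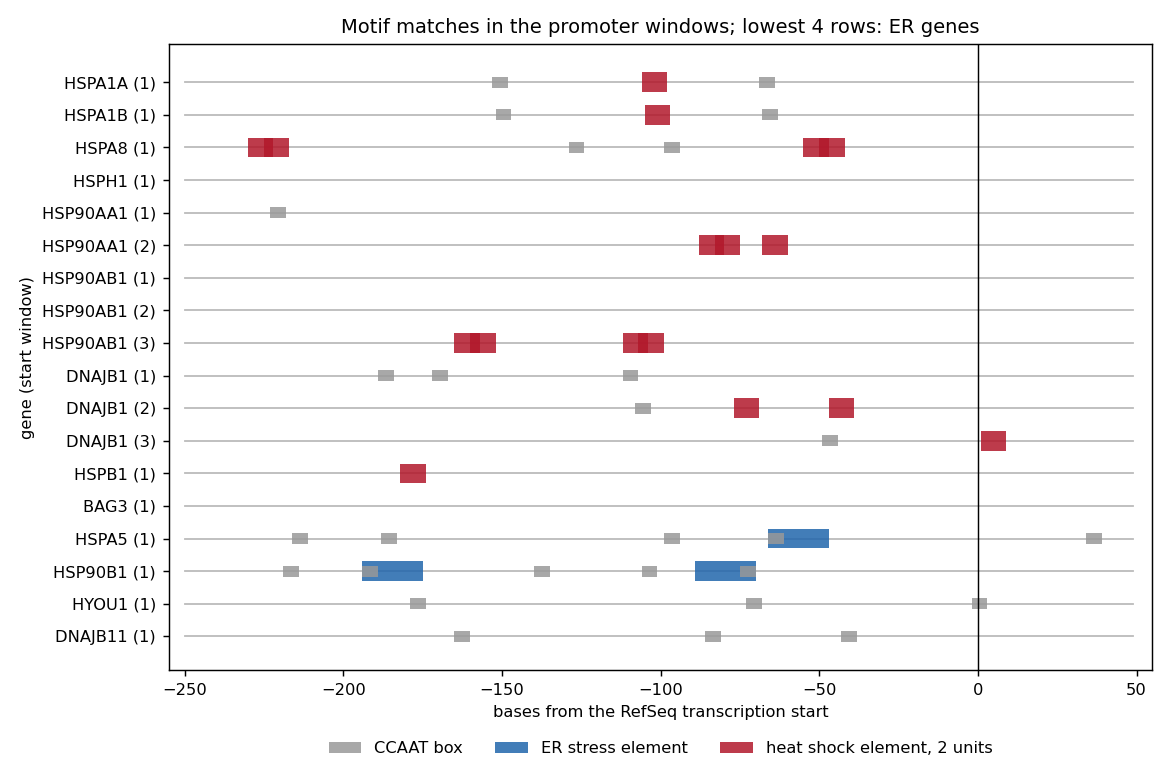
Positions of motif matches in the promoter windows of 9 members and 4 ER genes (lowest rows), in bases from each RefSeq transcription start at 0, with the number of the start window in brackets. Red marks the heat shock element of 2 units (overlapping boxes are elements of 3 units), blue the ER stress element and grey the CCAAT box; red boxes appear only in rows of members and blue boxes only in the rows of HSPA5 and HSP90B1.

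In control cells the members spanned a wide range of transcript levels. HSP90AB1 was highest (829 ± 26.1 FPKM, SD, n = 3), followed by HSPA8 (565 ± 5.93 FPKM), HSP90AA1 (323 ± 24.8 FPKM), HSPB1 (291 ± 33.1 FPKM) and BAG3 (68.3 ± 2.08 FPKM). HSPA1B (40.5 ± 0.559 FPKM), HSF1 (34.3 ± 2.10 FPKM), DNAJB1 (31.9 ± 0.573 FPKM), HSPH1 (20.7 ± 2.12 FPKM) and HSPA1A (19.0 ± 2.85 FPKM) were lower. Neighbours in this order whose control libraries overlapped were HSP90AA1 with HSPB1, HSF1 with DNAJB1, and HSPH1 with HSPA1A. By mean FPKM in the control libraries HSP90AB1 ranked 34 among the genes tested and HSPA1A ranked 2342. In per-length FPKM, the constitutive HSP90AB1 and HSPA8 thus stood far above the stress-inducible HSPA1A and HSPA1B. The FPKM of DNAJB1 rests on a gene length of 8188 bases that was found from its values, against 3672 bases of exons in the GENCODE annotation, so its place in the order depends on the length used. As a divisor, the length touches differences between groups only through the weight of the pseudocount. Whether reads from outside the GENCODE exons were counted for DNAJB1 is not known.

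Most members were lower after 2-DG, and HSF1 itself was not. At 10 mM, 7 of the 10 members fell and 0 rose, while of all genes tested 17.5% were called lower and 12.1% higher. HSF1 and HSPH1, the only members with a positive log2 fold change at 10 mM, had unadjusted p of 0.0627 and 0.845 in limma. At 20 mM, 8 members fell and 1 (HSF1) rose, against a background of 21.6% lower and 15.4% higher. The 7 lower at 10 mM became 4 with median-ratio scaling or in a fit of only the 2 groups, and the 8 lower at 20 mM became 5 with median-ratio scaling or without control library 1, 20 mM library 2 or 20 mM library 3. The rise of HSF1 was not called without 20 mM library 1. The median log2 fold change of the members was −0.23 at 10 mM and −0.26 at 20 mM, beside −0.01 and −0.02 over all genes tested. In bulk RNA, fewer cells of a type and less RNA per cell cannot be told apart. Under the thresholds the study used for DEGs (a log2 fold change beyond 1 in size with an unadjusted p under 0.05), only HSPA1A at 10 mM passed. Those thresholds called 1.16% of all genes lower and 0.579% higher at 10 mM, and 1.96% lower and 0.965% higher at 20 mM.

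**Figure D2:**
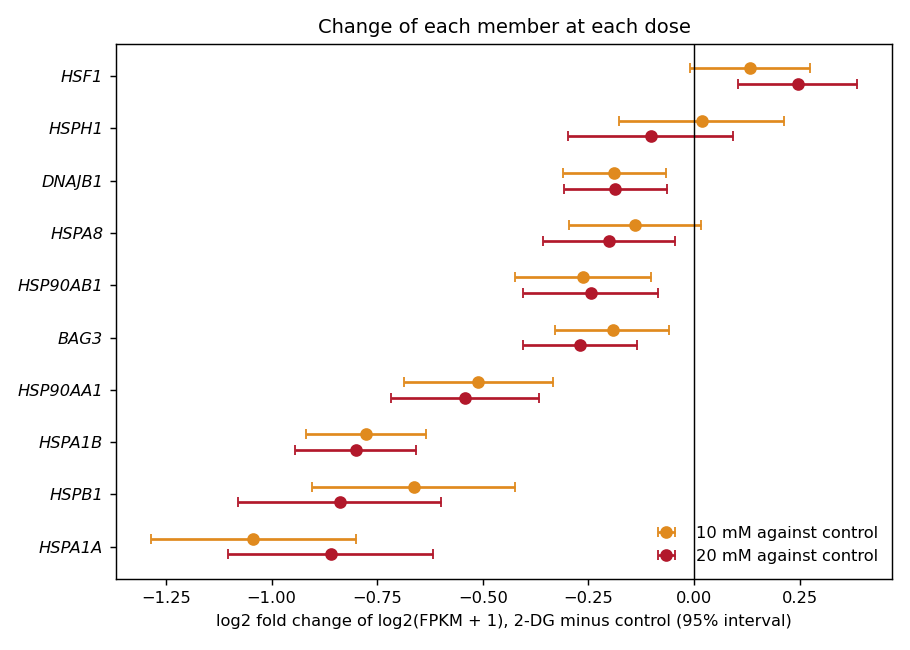
Log2 fold change of log2(FPKM + 1) of each member, 2-DG minus control (x axis), for 10 mM (orange) and 20 mM (red), with 95% intervals from limma. The intervals of HSPH1 at both doses and of HSF1 and HSPA8 at 10 mM span 0, that of HSF1 at 20 mM lies to its right, and HSPA1A, HSPB1, HSPA1B and HSP90AA1 lie farthest to the left.

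HSF1, the factor that drives the response, was measured at 36.1, 34.7 and 32.0 FPKM in the 3 control libraries, 38.3, 39.5 and 35.2 FPKM at 10 mM, and 41.4, 39.8 and 41.0 FPKM at 20 mM. All 3 libraries at 20 mM lay above every control library, while those at 10 mM overlapped the control. Here and for the members below, the share of all genes tested whose groups do not overlap was not computed. The log2 fold change was 0.13 (SE 0.063, limma adjusted p = 0.146) at 10 mM and 0.24 (SE 0.063, adjusted p = 0.0129) at 20 mM, a 1.19-fold higher mean. Without 20 mM library 1 the adjusted p was 0.0511, and over 16 alternatives it ranged from 0.00877 to 0.0511. HSF1 shares 272 bases of its exons with genes on the opposite strand, DGAT1 among them, and it is not stated whether reads were counted by strand.

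HSPA1A and HSPA1B encode the same stress-inducible HSP70 and are the classical targets of HSF1. HSPA1A (chr6:31815464-31817946, plus strand, GENCODE 29, GRCh38) was measured at 22.1, 16.5 and 18.3 FPKM in the control, 8.87, 8.97 and 8.08 FPKM at 10 mM, and 11.1, 8.91 and 9.91 FPKM at 20 mM. The highest 2-DG library was below the lowest control library. HSPA1A fell by 1.04 on the log2 scale at 10 mM (SE 0.108, limma adjusted p = 0.000106) and by 0.86 at 20 mM (SE 0.108, adjusted p = 0.000229). Its mean FPKM changed by −54.5% and −47.4%.

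HSPA1B (chr6:31827735-31830255, plus strand) read 40.0, 41.1 and 40.5 FPKM in the control, 23.0, 24.3 and 22.3 FPKM at 10 mM, and 24.9, 22.1 and 21.6 FPKM at 20 mM. The control libraries differed little among themselves and stood well clear of all 6 treated ones. HSPA1B fell by 0.78 (SE 0.064, adjusted p = 2.59e-05) and by 0.80 (SE 0.064, adjusted p = 1.25e-05) in limma. These genes are near-identical copies: of the 100-base windows of the HSPA1A transcript, 69.9% also occur in HSPA1B, so the split of reads between them is uncertain. HSPA1B also shares 920 bases of exon with AL671762.1 on the same strand. The sum of both genes avoids the split between the copies and lay at 57.6 to 62.1 FPKM in the control, 30.4 to 33.3 FPKM at 10 mM and 31.0 to 36.0 FPKM at 20 mM. The sum fell by 0.88 at 10 mM (adjusted p = 1.81e-05) and by 0.84 at 20 mM (adjusted p = 1.44e-05).

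HSPA8, the constitutive HSP70 known as HSC70, was much more abundant, and its differences between groups were smaller. Its values were 564, 571 and 559 FPKM in the control, 486, 519 and 534 FPKM at 10 mM, and 495, 506 and 472 FPKM at 20 mM. No treated library reached the lowest control library. The log2 fold change was −0.14 at 10 mM (SE 0.070, limma adjusted p = 0.167). At 20 mM HSPA8 fell by 0.20 (SE 0.070, adjusted p = 0.0464), and this call was lost when any 1 library of the control or the 20 mM group was left out (adjusted p between 0.0921 and 0.167). HSPA8 shares 175 bases of exon with SNORD14C and SNORD14D on the same strand.

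HSPH1 encodes the cytosolic HSP110, which releases ADP from HSP70, and it was the one member without a call at either dose. Control libraries held 18.4, 21.2 and 22.6 FPKM, 10 mM libraries 22.5, 18.8 and 21.6 FPKM, and 20 mM libraries 19.9, 18.7 and 18.9 FPKM. The groups overlapped throughout. The log2 fold change was 0.02 at 10 mM (95% interval −0.18 to 0.21, adjusted p = 0.904) and −0.10 at 20 mM (95% interval −0.30 to 0.09, adjusted p = 0.390) in limma.

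The HSP90 pair keeps kinases, hormone receptors and HSF1 itself in a folded or inactive state. HSP90AA1, the inducible form, read 305, 314 and 351 FPKM in the control, 227, 208 and 245 FPKM at 10 mM, and 224, 222 and 218 FPKM at 20 mM. The treated libraries lay below all controls. The log2 fold change of HSP90AA1 was −0.51 at 10 mM (SE 0.079, limma adjusted p = 0.00108) and −0.54 at 20 mM (SE 0.079, adjusted p = 0.000549). HSP90AA1 shares 197 bases of exon with WDR20 on the other strand.

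HSP90AB1, the constitutive form and the most abundant member, read 824, 806 and 857 FPKM in the control, 679, 696 and 696 FPKM at 10 mM, and 715, 695 and 687 FPKM at 20 mM. All treated libraries lay below all controls here too, and the doses overlapped. HSP90AB1 fell by 0.26 at 10 mM (SE 0.072, limma adjusted p = 0.0210) and by 0.25 at 20 mM (SE 0.072, adjusted p = 0.0233). The 10 mM call was lost without control library 3 (adjusted p = 0.0730). The 20 mM call was lost without control library 1 or 3 or any 1 of the 20 mM libraries (adjusted p between 0.0506 and 0.0902). The inducible form made up 27.0% to 29.1% of the FPKM of the pair in the control, 23.0% to 26.0% at 10 mM and 23.9% to 24.2% at 20 mM, so all treated libraries were below the controls in this share. Whether the share changed was not tested.

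DNAJB1, also called HSP40, is the J-domain protein that stimulates the ATPase of HSP70 and a target of HSF1. It read 32.5, 31.5 and 31.6 FPKM in the control, 27.1, 29.5 and 27.0 FPKM at 10 mM, and 28.8, 27.6 and 27.4 FPKM at 20 mM. The control libraries were the 3 highest. DNAJB1 fell by 0.19 at both doses (SE 0.054, limma adjusted p = 0.0260 and 0.0226). The 10 mM call was lost without any 1 control library or without 10 mM library 1 or 3 (adjusted p between 0.0547 and 0.0831). The 20 mM call was lost without control library 1 or 20 mM library 2 or 3 (adjusted p between 0.0669 and 0.0834). DNAJB1 shares 309 bases of exon with genes on the other strand.

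HSPB1, or HSP27, is a small heat shock protein that holds unfolded clients without ATP. Its libraries read 329, 268 and 277 FPKM in the control, 165, 211 and 175 FPKM at 10 mM, and 172, 161 and 153 FPKM at 20 mM. All treated libraries lay below all controls, although the control and 10 mM libraries spread widely, and the doses overlapped. HSPB1 fell by 0.66 at 10 mM (SE 0.108, limma adjusted p = 0.00145) and by 0.84 at 20 mM (SE 0.108, adjusted p = 0.000253). Its mean FPKM changed by −36.9% and −44.4%, the largest relative loss among the 5 members above 50 FPKM in the control.

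BAG3 is a nucleotide exchange factor that links HSP70 to small heat shock proteins and to selective autophagy. It read 68.6, 70.1 and 66.0 FPKM in the control, 57.4, 57.6 and 63.8 FPKM at 10 mM, and 57.4, 58.1 and 53.8 FPKM at 20 mM. No treated library reached the controls. BAG3 fell by 0.27 at 20 mM (SE 0.060, limma adjusted p = 0.00617), a call that held in all 16 alternatives. Its fall of 0.19 at 10 mM (SE 0.060, adjusted p = 0.0359) was lost in 11 of them. Among these were the fits without library 1 or 2 of any of the 3 groups (adjusted p between 0.0575 and 0.109).

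**Figure D3:**
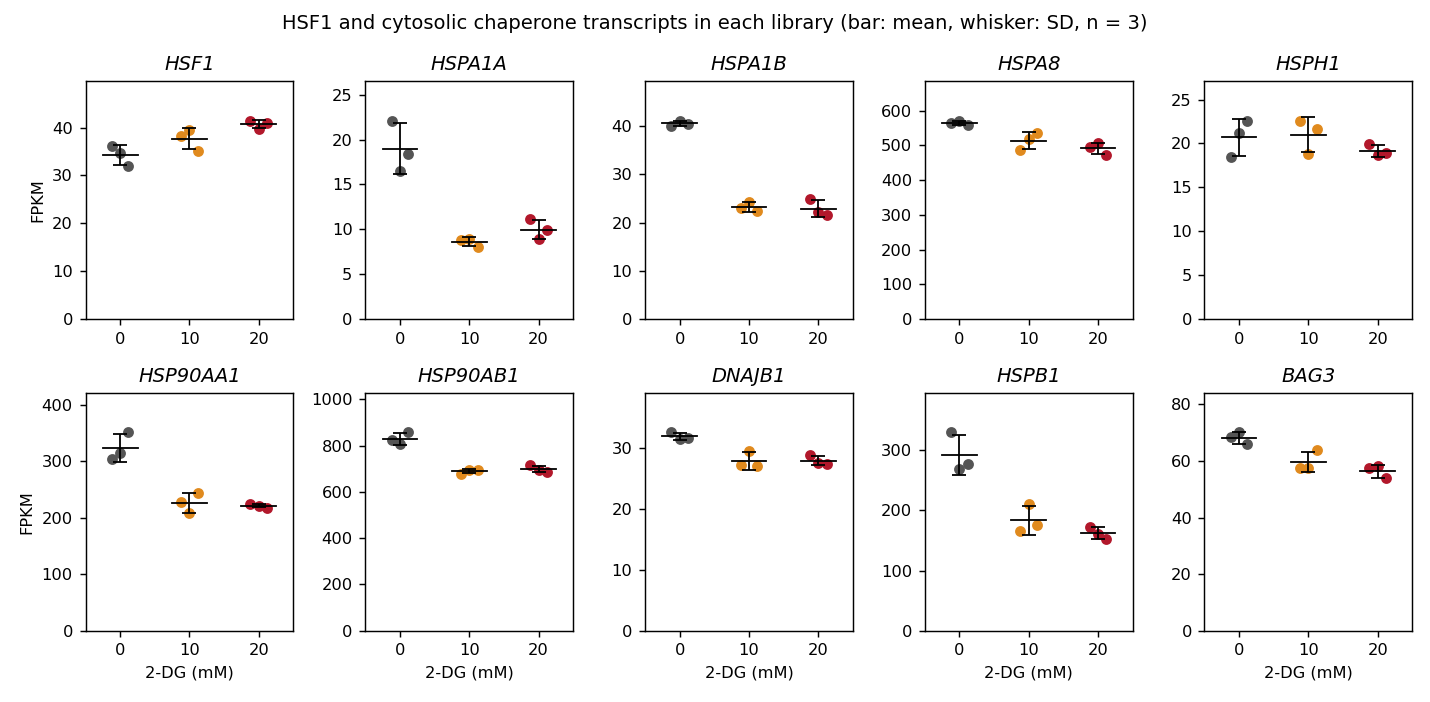
FPKM of each member (y axis, from 0, its own scale in each panel) in the 3 control, 3 10 mM and 3 20 mM 2-DG libraries (x axis), with the mean as a bar and the SD as whiskers. The treated points sit below the control points in 8 panels, the HSPH1 points overlap between groups, and the HSF1 points at 20 mM lie above the control. The share of all genes tested with such a separation was not computed.

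Between the doses no member was called. Of the 10 members 0 were called between 20 mM and 10 mM by limma, 0 had an unadjusted p under 0.05, and 0 were called by limma-voom on recovered reads; of all genes tested 0% were called higher and 0% lower. The largest differences were 0.18 for HSPA1A (95% interval −0.06 to 0.43, adjusted p = 0.830) and −0.17 for HSPB1 (95% interval −0.41 to 0.07, adjusted p = 0.852). The interval of HSP90AA1 ran from −0.21 to 0.14 and that of HSPA1B from −0.17 to 0.12. HSF1 was 0.11 higher at 20 mM than at 10 mM (95% interval −0.03 to 0.25, adjusted p = 0.819), with all 3 libraries at 20 mM above those at 10 mM.

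Summed over the 10 members, the transcripts made up 0.696% to 0.712% of all FPKM in the control libraries, 0.550% to 0.573% at 10 mM and 0.549% to 0.564% at 20 mM. The summed level was 2174 to 2256 FPKM in the control, 1735 to 1828 FPKM at 10 mM and 1703 to 1790 FPKM at 20 mM. The sum is carried mainly by HSP90AB1, HSPA8, HSP90AA1 and HSPB1.

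The ER paralogues of these chaperones rose, while most of the members fell and HSPH1 was not called. HSPA5, the HSP70 of the ER known as BiP, averaged 245 FPKM in the control, 1030 FPKM at 10 mM and 1280 FPKM at 20 mM, with log2 fold changes of 2.07 (limma adjusted p = 4.56e-07) and 2.38 (adjusted p = 1.43e-07). HYOU1, the ER relative of HSP110, rose by 2.06 and 2.33, HSP90B1, the HSP90 of the ER known as GRP94, by 1.73 and 1.84, and the J-domain gene DNAJB11 by 1.23 and 1.36. Of 8 ER counterparts, 7 rose at 10 mM and 8 at 20 mM, with medians of 1.57 and 1.80. Of all genes tested, 12.1% were called higher at 10 mM and 15.4% at 20 mM, with median log2 fold changes of −0.01 and −0.02. SIL1, named after its values were seen, was the one without a call at 10 mM (log2 fold change 0.29, adjusted p = 0.0557).

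The difference between compartments was expressed as the log2 ratio of the FPKM of a cytosolic gene to that of its ER relative in each library. In each of the 6 ratios the 6 treated libraries lay below the 3 controls. HSPA8 stood at 2.30 times HSPA5 in the control and at 0.383 times HSPA5 at 20 mM, so that BiP transcripts came to exceed those of HSC70 per length. The log2 ratio of HSPA8 to HSPA5 was 1.18, 1.28 and 1.15 in the control libraries, −1.12, −0.93 and −0.99 at 10 mM, and −1.39, −1.34 and −1.43 at 20 mM. The ratio of HSP90AA1 to HSP90B1 went from 3.59 to 0.685, and that of HSP90AB1 to HSP90B1 from 9.22 to 2.16. DNAJB1 went from 6.42 to 1.95 times DNAJB11 and HSPH1 from 0.290 to 0.0529 times HYOU1. On the log2 scale the mean change, both doses pooled against control, was −2.40 for HSPA8/HSPA5, −3.26 for HSPA1A/HSPA5, −2.32 for HSP90AA1/HSP90B1, −2.05 for HSP90AB1/HSP90B1, −2.26 for HSPH1/HYOU1 and −1.65 for DNAJB1/DNAJB11. In the exact two-sided permutation test of 6 against 3 libraries each gave p = 0.0238, also after Benjamini-Hochberg adjustment over the 6 pairs, which is the smallest p the design allows. The pairs were chosen with the rise of the ER genes known, so this p is no independent support. HSPH1 itself was not called, and the change of its ratio is close in size to that of HYOU1. At 20 mM the log2 ratio changed by −2.59 for HSPA8/HSPA5, −2.09 for HSP90AB1/HSP90B1 and −1.72 for DNAJB1/DNAJB11. The cytosolic genes of these pairs changed by only −0.202, −0.245 and −0.186. For HSPA1A/HSPA5 and HSP90AA1/HSP90B1 the log2 ratio changed by −3.31 and −2.39, and the cytosolic gene by −0.86 and −0.54. Pairs that share HSPA5 or HSP90B1 are not independent.

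**Figure D4:**
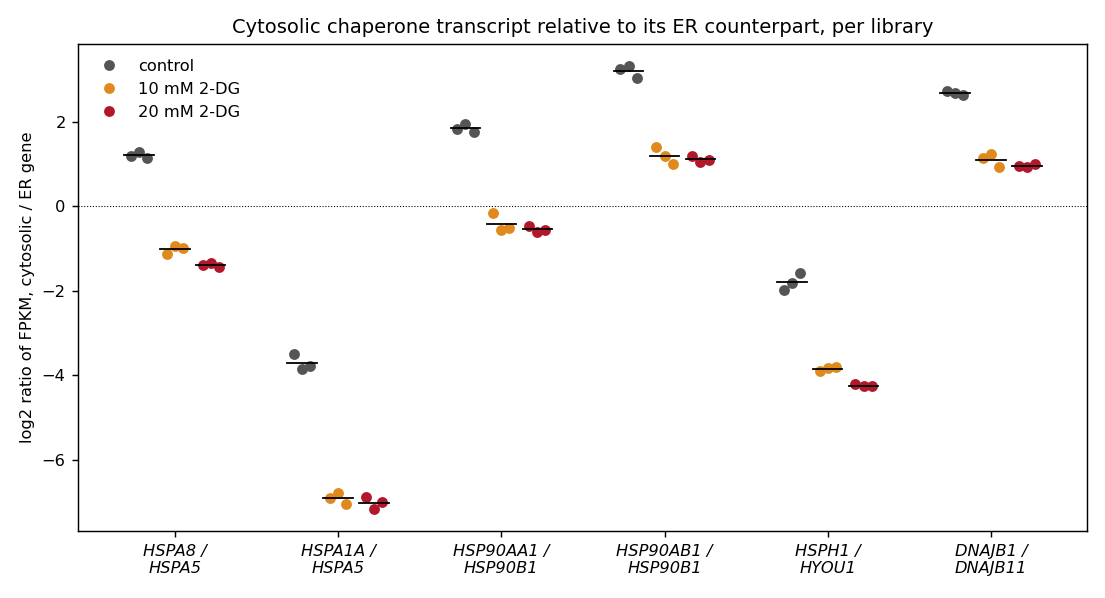
Log2 ratio of the FPKM of 6 cytosolic genes to their ER relatives (y axis) in each control, 10 mM and 20 mM 2-DG library (points; the short lines are means of 3 libraries). In every pair all treated points lie below all control points, and the ratios of HSPA8 to HSPA5 and of HSP90AA1 to HSP90B1 pass from above 0 to below it.

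Lists of the other cytosolic chaperones held genes that rose and genes that fell, and of all genes tested 12.1% were called higher and 17.5% lower at 10 mM, and 15.4% higher and 21.6% lower at 20 mM. Of 6 other heat shock factors and regulators tested, HSF2 fell at both doses (log2 fold change −0.39 at 20 mM, limma adjusted p = 0.0300) and HSF2BP, named after its values were seen, rose at 10 mM (0.18, adjusted p = 0.0307; 0.15 with an adjusted p of 0.0527 at 20 mM). Of 8 other HSP70 and HSP110 genes, HSPA14 fell at both doses (−0.52 and −0.69) and HSPA4L at 20 mM (−0.37), with 0 higher. HSPA6, an HSP70 gene that is strictly heat-inducible, stayed low, at 0.900 FPKM in the control and 0.728 FPKM at 20 mM (log2 fold change −0.15, adjusted p = 0.557), and is named here after its values were seen. Of 12 J-domain genes, 3 rose at each dose, 2 fell at 10 mM and 3 fell at 20 mM. DNAJB2 (0.59 at 20 mM), DNAJB4 (0.50) and DNAJB6 (0.18) rose at each dose, DNAJC8 (−0.46) and DNAJB5 (−0.34) fell at each dose, and DNAJA1 (−0.17, adjusted p = 0.0353) fell at 20 mM. DNAJB6, DNAJB5 and DNAJA1 are named after their values were seen. Only 2 of 8 other small heat shock protein genes were expressed enough to be tested, and HSPB8, a partner of BAG3, rose at 20 mM (0.27, adjusted p = 0.0480).

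The counts of the co-chaperone and chaperonin lists are to be read against the shares over all genes tested, 17.5% lower and 12.1% higher at 10 mM and 21.6% lower and 15.4% higher at 20 mM. Of 9 co-chaperones that exchange nucleotide on HSP70 or hand clients on from it, only STIP1, the HOP protein that bridges HSP70 and HSP90, was called, and it fell by 0.27 at 10 mM and by 0.35 at 20 mM (limma adjusted p = 0.00447 and 0.000702). Of 12 HSP90 co-chaperones, 4 fell at each dose and 0 rose. FKBP5 (−0.85 at 20 mM), PPP5C (−0.44) and PTGES3 or p23 (−0.44) fell at both doses, and, named after their values were seen, UNC45A fell at 10 mM (−0.26) and CACYBP at 20 mM (−0.43). Of the 8 subunits of TRiC, the ring that folds actin and tubulin, 6 fell at 10 mM and 4 at 20 mM, led by TCP1 (−0.49 at 20 mM), CCT2 (−0.30) and CCT6A (−0.29). Of 6 prefoldin subunits, VBP1 and PFDN6 fell at both doses (−0.37 and −0.47 at 20 mM) and PFDN2 rose at 20 mM (0.43). The mitochondrial chaperones were mixed, with HSPA9 (mortalin) higher at 20 mM by 0.57, and HSPE1 (−0.65), TRAP1 (−0.41) and HSPD1 (−0.22, named after its values were seen) lower. The list medians at 20 mM were −0.11 for the HSP70 co-chaperones, −0.13 for the HSP90 co-chaperones, −0.19 for TRiC, −0.24 for prefoldin and −0.18 for the mitochondrial chaperones.

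**Figure D5:**
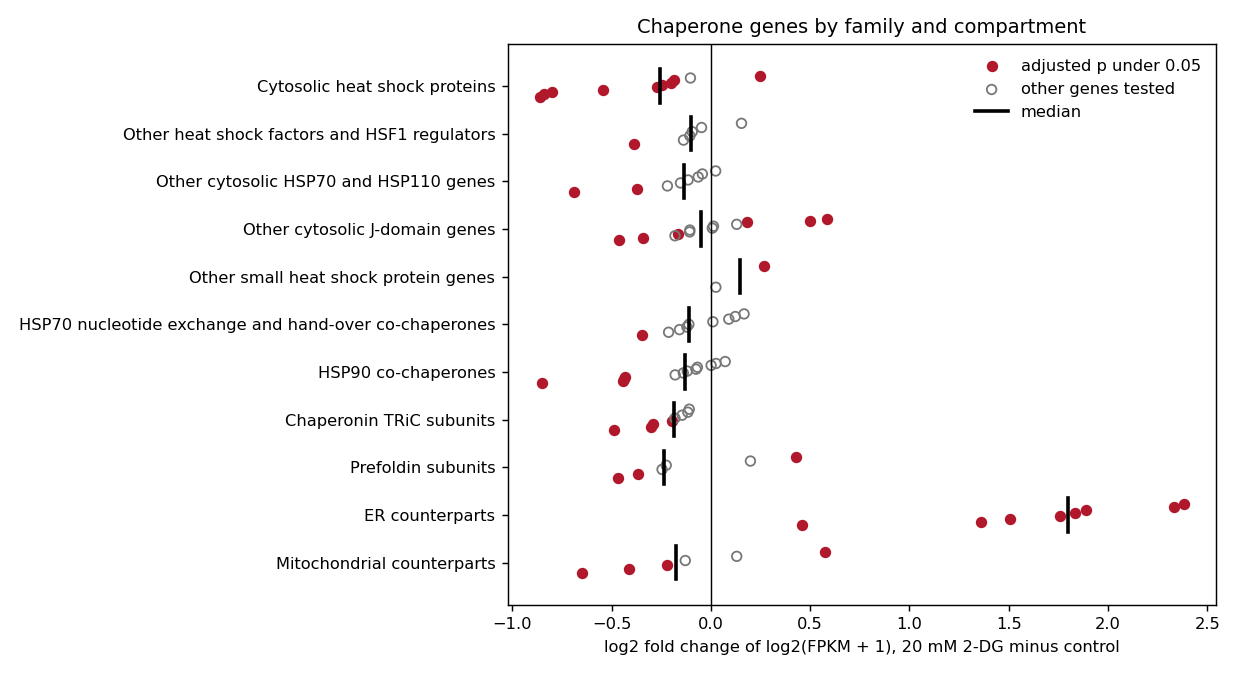
Log2 fold change of log2(FPKM + 1), 20 mM 2-DG minus control (x axis), of every tested gene in 11 chaperone lists (rows); filled points have an adjusted p under 0.05 in limma, open points do not, and black lines are list medians. The ER counterparts lie between 0.46 and 2.38, while the cytosolic heat shock proteins lie between −0.86 and 0.24.

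Across the 9 libraries, the transcripts most like HSPA1A in log2(FPKM + 1), among 3918 genes with a mean of at least 10 FPKM, were SOD1 (Pearson r = 0.986), NCS1 (0.984) and SEPTIN9 (0.981). Those most like HSPB1 were PSMB8 (0.995), BCL3 (0.993) and CKS1B (0.992), and those most like HSP90AA1 were CBX1 (0.990), ANP32E (0.988) and the TRiC subunit CCT6A (0.987). For HSPA8 they were INO80E (0.985), SRSF2 (0.971) and its fellow member BAG3 (0.967). These values describe 9 libraries that share 3 conditions, and any gene lower in both treated groups correlates with another such gene. Among the members themselves, HSPA1A, HSPA1B, HSP90AB1, DNAJB1 and HSPB1 correlated with each other at 0.91 to 0.97. HSPH1 stood apart, at −0.61 with HSF1 and between −0.06 and 0.40 with the others, and HSF1 ran opposite to every other member, at −0.57 to −0.89.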

How the data were processed

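RNA was extracted with a Qiagen RNeasy kit, libraries were made with a SMARTER mRNA-Seq kit and sequenced on an Illumina NovaSeq. The authors deposited FPKM values for each library, with 20495 of the 61552 genes unnamed, and the submitters' processing notes name GRCh38 (hg38). The aligner, the counting tool, its strand setting and the annotation are not given in the sources used here. Cells given lactate were not analysed here.

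The FPKM values were resolved into whole reads: exon lengths of GENCODE 29 gave each library total, and the shortest length that made all 9 values whole (within 1e-05 of a read, widened slightly for high counts) gave the reads of 32806 of 32806 genes above 0. These reads are not the counts of the authors. A gene was tested if 3 or more libraries held 10 reads (scaled to the median total) and its reads summed to 15 or more, which left 16572. The main test was limma 3.58.1 in R 4.3.3 on log2(FPKM + 1), with lmFit, contrasts and eBayes with a trend; the DESeq2 test of the study needs counts and was not run. Ratios to ER relatives were compared by exact permutation over libraries. Replicates correlated at 0.989 to 0.996. They differed by 14.8 to 22.6 times the sampling variance in the control, 27.8 to 59.1 times at 10 mM and 4.76 to 6.83 times at 20 mM. None was therefore taken for a copy of another. The single fit shares its estimate of the spread across these unequal groups. The fit was also run on simulated data with the same spread setting in every group. The planted changes were larger than those of HSF1, HSPA8, HSP90AB1, DNAJB1 and BAG3, so this run cannot judge their calls. Shared windows were found by exact match of 100-base stretches of GENCODE transcripts.

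The members and the chaperone lists were chosen with earlier results of these data known, and the lists were written from general knowledge. All members are named, and of each list at most the 3 called genes with the largest change at 20 mM and the genes of the pairs, with the exceptions stated where they appear. For likeness, the 3 most correlated genes were named. Alternatives were another pseudocount (0.1), 2 filters, median-ratio scaling, limma-voom on recovered reads, the thresholds of the study, fits of 2 groups, a replicate block, leaving out each library and, for HSPA1A and HSPA1B, their sum.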

Additional observations from a re-analysis of the deposited data

How the results depend on the processing

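HSPA1A, HSPA1B, HSPB1 and HSP90AA1 at both doses and BAG3 at 20 mM kept their direction and an adjusted p under 0.05 (limma) in every alternative fit; under the thresholds of the study only HSPA1A at 10 mM passed. The count of members lower at 10 mM (7) was 4 with median-ratio scaling, 4 in a fit of only the 2 groups, 4 with the replicate block and 1 under the thresholds of the study. The count lower at 20 mM (8) was 5 with median-ratio scaling and 0 under the thresholds of the study, and 5 to 8 when 1 library was left out, with the lowest count without control library 1 or 20 mM library 2 or 3. The count higher at 20 mM (1, HSF1) was 0 under the thresholds of the study and 0 to 1 when 1 library was left out, with 0 without 20 mM library 1. The count lower at 10 mM was 5 to 7 when 1 library was left out, with 5 without any 1 control library or 10 mM library 1. The HSPA8 call at 20 mM was lost in 9 of 16 alternatives, those of HSP90AB1 in 4 (10 mM) and 7 (20 mM), and those of DNAJB1 in 8 and 4. The cause was not tested. Changes that turned sign were all uncalled: HSPH1 at 10 mM ranged from −0.061 to 0.092 when 1 library was left out, and between the doses HSPA1B ranged from −0.085 to 0.013 (0.039 for the sum with HSPA1A), HSP90AA1 from −0.091 to 0.025 and DNAJB1 from −0.020 to 0.043. All 6 ratios to ER relatives kept their direction; without 1 control library the smallest exact permutation p is 0.0714, and with permutation inside replicate numbers 0.0741, so neither can reach 0.05.

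The replicate block is printed only as a check, since libraries with the same number did not deviate together (correlations of −0.41 to 0.29). It gave 4306 called genes at 10 mM against 4914, and 5546 at 20 mM against 6126. The scaling factors of the median-ratio alternative ran from 0.969 to 1.04. The fewest reads of any member in a library were 668.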
